A study of Rattus norvegicus with 20 samples.

Results

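Omeprazole, which suppresses gastric acid by blocking the proton pump, was given to rats with surgically induced reflux oesophagitis, and their oesophageal tissue was set against that of sham-operated rats. The 4 arrays whose titles name omeprazole at 30 mg/kg and the 4 whose titles name sham surgery were taken from the 20 arrays of the series by those titles alone. All animals were Wistar rats. Omeprazole rats had reflux surgery, 7 days of the drug before it and 10 days after it. Untreated rats had the same surgery and no drug, and sham rats had sham surgery. No drug or vehicle is named for the sham rats, so surgery and drug differ together in the comparison. STW5, a liquid combination of herbal extracts, was given to operated rats at 0.5 or 2 ml/kg on the same days. It enters below only because its arrays titled 2 ml/kg share a slide with omeprazole. Age, sex and the layers of the oesophageal wall taken are not given in the sources used here.

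Reflux oesophagitis is an inflammation of the squamous lining by refluxed gastric content. Neutrophils and macrophages enter the wall, keratinocytes at the wound edge change their keratins, and cornified layers are lost. Proton pump inhibitors raise gastric pH, which removes the acid brake on gastrin release in the stomach. In human liver cells omeprazole is also known to activate the aryl hydrocarbon receptor, the transcription factor that induces the cytochrome P450 gene Cyp1a1.

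RNA was labelled with Cy3 and hybridized to Agilent arrays with 1 colour. A level below is the log2 signal of a probe minus the 75th percentile of its array, so it ranks samples for 1 gene but not genes against each other. Between 66.5% and 68.6% of features were well above background on the omeprazole arrays and between 62.7% and 66.8% on the sham arrays, and 0 features were saturated. The omeprazole arrays lay on the third slide with the STW5 arrays titled 2 ml/kg, and the sham arrays lay alone on the first. Slide and group therefore cannot be told apart for omeprazole against sham. The untreated arrays lay on the second slide, so the same holds wherever omeprazole or sham rats are set against untreated rats below. Squamous keratin genes (Krt4, Krt13), striated muscle genes (Ckm, Acta1) and smooth muscle genes (Myh11, Actg2) were well above background on all 8 arrays. Of the listed markers of other tissues, the gastric genes Atp4b, Gif and Muc5ac, the liver gene Apoa1, the B cell genes Ms4a1 and Cd79a and the adipocyte gene Plin1 had no probe that passed the filter on dim signals. The gastric genes Atp4a, Pgc and Gkn1, the liver gene Alb and the adipocyte gene Adipoq did have a probe that passed. The gastric gene Gkn1 had levels of -7.77, -3.13, -2.90 and -5.67 on omeprazole replicates 1 to 4, against -6.96, -3.11, -6.88 and 3.30 on sham replicates 1 to 4. The high value of sham replicate 4 was joined by Adipoq, an adipocyte hormone gene, at 3.83 there and at -3.92 to -0.09 on the other sham arrays.

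Sham replicate 2 went against the other sham arrays and lay close to 2 omeprazole arrays. Over 13616 genes the median absolute log2 difference was 0.133 between omeprazole replicate 2 and sham replicate 2, and 0.205 between omeprazole replicate 3 and sham replicate 2. Omeprazole replicates 2 and 3 differed from each other by 0.193, and sham replicate 2 differed from sham replicates 1, 3 and 4 by 0.435, 0.289 and 0.410. For 66.8% of genes sham replicate 2 lay nearer to the omeprazole mean than to the mean of the other sham arrays, against 48.2%, 29.9% and 43.2% for sham replicates 1, 3 and 4. Omeprazole replicates 2 and 3 and sham replicate 2 shared high inflammatory and wound-edge keratin genes that omeprazole replicates 1 and 4 and the other sham arrays had at lower levels. All arrays keep their deposited labels here. For some genes, but not all that rest on sham replicate 2, a value without it is given as well. Sham replicate 2 was singled out because it lay near omeprazole arrays. Leaving it out therefore favours wider differences, and the calls without it are a description only. What joins these arrays was not tested.

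**Figure D1:**
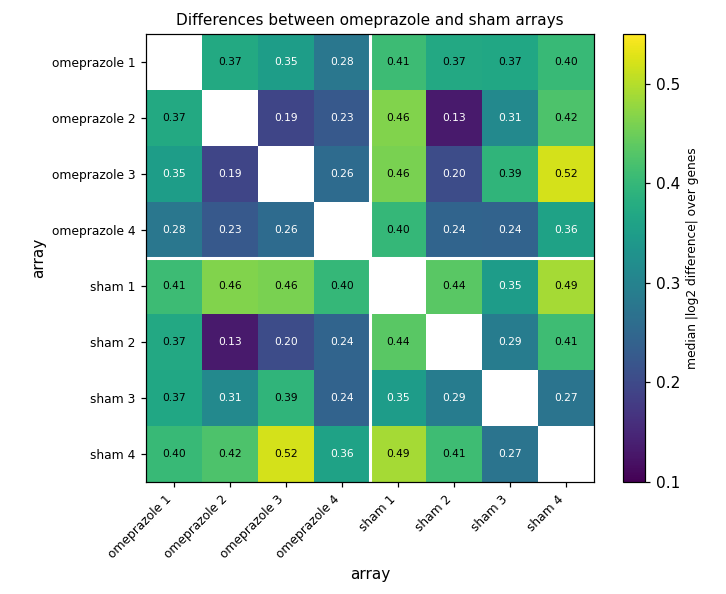
Median absolute log2 difference over 13616 genes between each pair of the 8 arrays, with omeprazole arrays above and left of the sham arrays. The pair of omeprazole replicate 2 and sham replicate 2 has the lowest value, 0.133, and sham replicate 2 stands at 0.289 or more from the other sham arrays.

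All 5 groups were fitted together and each gene was called at a Benjamini-Hochberg adjusted p under 0.05. In omeprazole minus sham 213 genes (1.56% of those tested) rose and 2 (0.0147%) fell, 1.58% together. Lists of the sizes below would hold few or no called genes at that share, so 0 calls is no result about a list. Of the risen genes 134 belonged to a set of 173 genes in which all arrays of the third slide lay beyond all 12 other arrays, 160 of them above and 13 below. Outside that set 79 genes rose (0.588% of 13443) and 2 fell (0.0149%). All 4 omeprazole arrays lay above all 4 sham arrays in 75 of the 79, where 2.82% of all genes outside the set did so, and below them in both falls, where 2.83% did so. The calls come from these same arrays and favour such separation, so this is a description only. Untreated minus sham, which shares the sham arrays, had 2038 genes higher and 2445 lower (32.9% called). Over all genes the median absolute log2 difference was 0.223 in omeprazole minus sham and 0.425 in untreated minus sham. Without sham replicate 2, 284 of all genes rose (2.09%) and 48 fell (0.353%). Outside the set 151 rose and 47 fell, and 65 of these rises and 2 of these falls were among those called with it. When omeprazole replicates 2 and 3 were left out as well, 21 rose and 2 fell.

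Cyp1a1, which encodes a drug- and hydrocarbon-oxidizing cytochrome P450, rose. Its levels were -3.89, -2.17, -2.22 and -1.53 on omeprazole replicates 1 to 4, against -6.66, -3.44, -7.63 and -7.55 on sham replicates 1 to 4. The omeprazole arrays lay above sham replicates 1, 3 and 4, while sham replicate 2, the only sham array on which the gene was well above background, lay above omeprazole replicate 1. The log2 difference was 3.86 ± 0.83 (SE, n = 4 and 4, adjusted p = 0.0187), and 4.82 without sham replicate 2 (adjusted p = 0.000453). Without omeprazole replicates 2 and 3 as well it was 4.57 (adjusted p = 0.0171). The call was lost, at differences of 3.43 to 3.79, when omeprazole replicate 2, 3 or 4 or sham replicate 1, 3 or 4 alone was left out (adjusted p = 0.0556 to 0.089). It was also lost with the omeprazole and sham groups fitted alone (adjusted p = 0.148). On the untreated arrays Cyp1a1 was not well above background, and omeprazole was at least 10.9-fold higher (means -2.45 in omeprazole and -7.92 in untreated, adjusted p = 0.00032), a bound against the dimmest signal that passed on each array. The STW5 arrays of the same slide had a mean of -4.17, and omeprazole minus those arrays was 1.72 ± 0.83 (adjusted p = 0.29). The array carried 1 kept probe for the gene, with 28.3% G and C bases.

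Of the 8 measured aryl hydrocarbon receptor targets 1, Cyp1a1, rose against sham, where 1.56% of all genes did. The median difference of the 8 was 0.43, beside 0.01 over all genes. Gsta2, a glutathione transferase gene, stood at 1.86, 1.56, 1.64 and 0.67 on the omeprazole arrays, against -0.32, 1.41, -0.33 and -1.56 on the sham arrays. Its difference of 1.63 ± 0.56 missed the threshold (adjusted p = 0.249), and without sham replicate 2 it was 2.17 (adjusted p = 0.0327). Cyp1b1, a further cytochrome P450 of this pathway, differed by 0.81 ± 0.36 and Nqo1, a quinone reductase gene, by 0.51 ± 0.28 (adjusted p = 0.413 and 0.507). Ahrr, the repressor of the receptor, differed by 0.35 ± 0.25 from sham and was higher by 1.15 ± 0.25 than in untreated rats (adjusted p = 0.617 and 0.00374). Of 24 drug metabolism genes 0 were called against sham, where 1.58% of all genes were. With an unadjusted p under 0.05, 1 was higher, where 6.48% of all genes were. That was Cyp2b2, a phenobarbital-inducible cytochrome P450, at 0.86 ± 0.33 (adjusted p = 0.325).

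Gast, which encodes the hormone gastrin, had levels of -2.90, -2.47, -2.81 and -3.18 on the omeprazole arrays, against -3.67, -3.60, -3.75 and -4.14 on the sham arrays. The groups did not overlap, and sham replicate 2 lay with the other sham arrays. The difference was 0.95 ± 0.18 (SE, adjusted p = 0.00617), and it was 1.02 without sham replicate 2 (adjusted p = 0.00881). It was 0.82 and no longer called when omeprazole replicates 2 and 3 were left out too (adjusted p = 0.181). Other scalings also ended the call, with 0.76 under median scaling and 0.75 under quantile normalization (adjusted p = 0.0939 and 0.0789). So did another background correction, normexp, with 0.37, and a fit of the 2 groups alone, with 0.95 (adjusted p = 0.283 and 0.0761). Gast was higher than in untreated rats by 0.71 ± 0.18 (adjusted p = 0.00877). Of 16 measured gastric and columnar epithelium genes Gast was the only one called, where 1.58% of all genes were. Muc6, a gland mucin gene, also had its omeprazole arrays (-2.17, -1.86, -1.89 and -2.14) above its sham arrays (-2.47, -2.69, -2.72 and -3.04), with a difference of 0.71 ± 0.19 (adjusted p = 0.0774). Fabp1, a fatty acid binding protein gene of liver and gut, differed by 1.30 ± 0.54 (adjusted p = 0.391). Atp4a, the catalytic subunit gene of the proton pump that omeprazole blocks, differed by 0.45 ± 0.33 (adjusted p = 0.626). Of 28 acid and bicarbonate transport genes 0 were called, with a median of -0.06. With an unadjusted p under 0.05, 0 were higher and 1 lower, where 6.48% and 4.41% of all genes were. The proton-sensing receptor gene Gpr4 stood at 0.69 ± 0.40 (adjusted p = 0.539).

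Over 33 measured pain, bradykinin and neuropeptide genes the median difference was 0.08, beside 0.01 over all genes. Of the 33, 1 rose, where 1.56% of all genes did. With an unadjusted p under 0.05, 7 were higher and 0 lower, where 6.48% and 4.41% of all genes were. Without sham replicate 2, 5 rose, where 2.09% of all genes did. The neuropeptide genes Gal and Vip depended on sham replicate 2. Gal, which encodes galanin, had 1.17, 1.49, 1.52 and -0.02 on the omeprazole arrays, against -3.60, 1.57, -1.84 and -1.60 on the sham arrays, a difference of 2.41 ± 0.73 (adjusted p = 0.164) and of 3.39 without sham replicate 2 (adjusted p = 0.000652). Vip, which encodes vasoactive intestinal peptide, had 1.14, 0.62, 0.55 and -0.10 on the omeprazole arrays, against -2.72, 0.60, -1.78 and -1.19 on the sham arrays. Its difference was 1.82 ± 0.56 (adjusted p = 0.165), and 2.45 without sham replicate 2 (adjusted p = 0.00694). In both genes sham replicate 2 lay inside the omeprazole range or above it. Ednra, an endothelin receptor gene, differed by 1.03 ± 0.27 (adjusted p = 0.078, and 0.0383 without sham replicate 2). Tubb3, a neuronal tubulin gene, had -1.39, -0.54, -0.76 and -0.68 on the omeprazole arrays, against 0.27, -0.37, 0.45 and 0.58 on the sham arrays. Its difference of -1.07 ± 0.26 missed the threshold (adjusted p = 0.0525), and it was -1.27 without sham replicate 2 (adjusted p = 0.0145). The Schwann cell gene Sox10 differed by -0.24 ± 0.51 (adjusted p = 0.878).

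**Figure D2:**
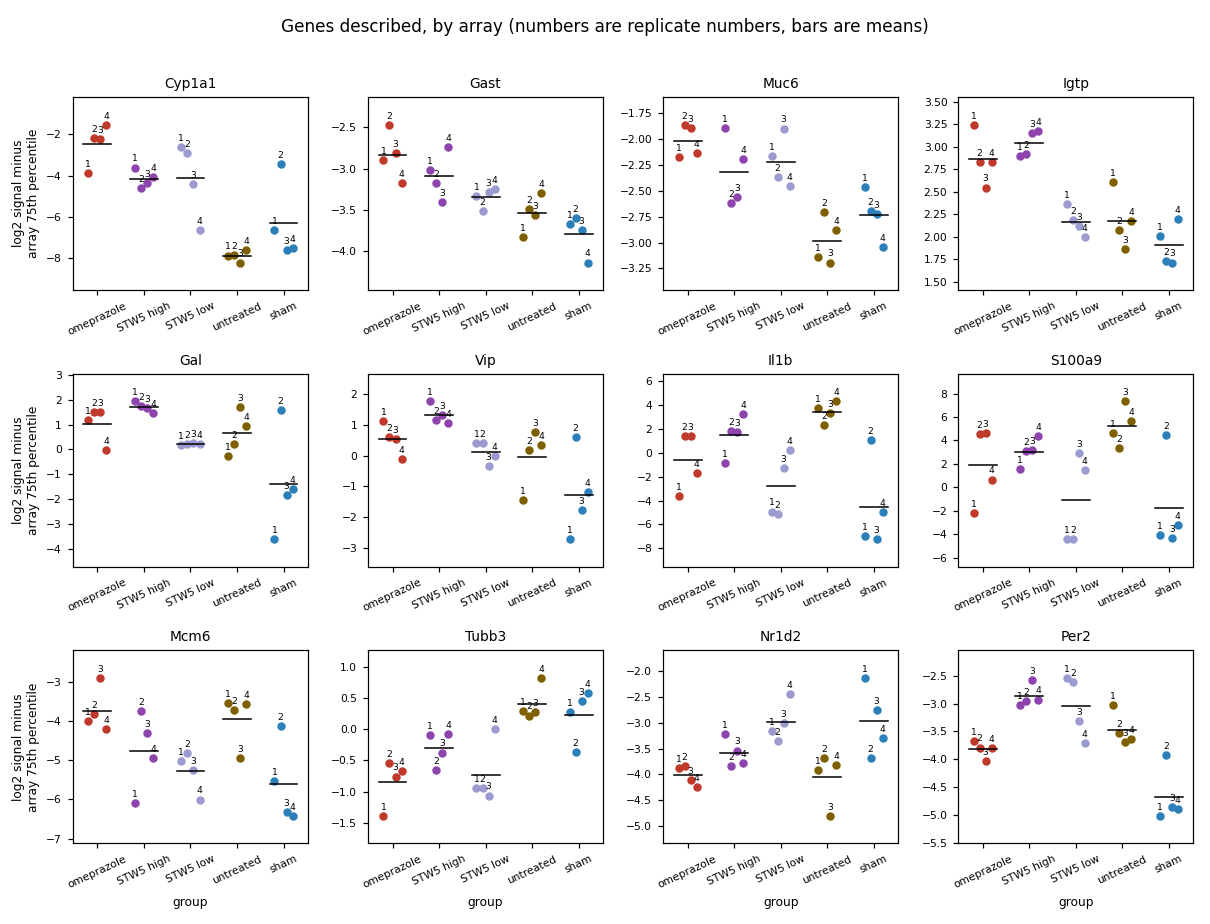
Level of 12 genes (log2 signal minus the 75th percentile of the array) on each of the 20 arrays, by group, with the replicate number at each point and the group mean as a bar. Gast, Muc6 and Igtp have every omeprazole array above every sham array, while in Gal, Vip, Il1b and S100a9 sham replicate 2 stands with omeprazole replicates 2 and 3.

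Igtp, an interferon-induced GTPase gene, was the only one of 26 interferon response genes called, where 1.58% of all genes were. Its levels were 3.24, 2.83, 2.54 and 2.83 on the omeprazole arrays, against 2.01, 1.73, 1.71 and 2.20 on the sham arrays, a difference of 0.95 ± 0.18 (adjusted p = 0.00591). Its probes disagreed: 2 other kept probes of the gene gave differences of -0.23 and 0.12. The list's median was 0.17. Ifih1, a sensor gene for viral RNA, and Ifit2, an interferon-induced antiviral gene, differed by 0.71 ± 0.37 and 0.29 ± 0.17 (adjusted p = 0.492 and 0.561).

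The 10 largest rises among called genes outside the set, with an established symbol and no overlap of arrays, were Adam7, Ppp1r14bl, Glul, Tcf21, Lap3, Or4g16, Tsg101, Tspan5, Rasl2-9 and Amn1. Probes of Glul, Tcf21 and Lap3 held 23.3% G and C, that of Tsg101 28.3%, that of Ppp1r14bl 41.7% and the others 35%. Glul, which encodes glutamine synthetase, was well above background on all 8 arrays. It had -1.84, -1.99, -1.62 and -1.90 on the omeprazole arrays, against -4.87, -3.89, -4.41 and -4.24 on the sham arrays, a difference of 2.52 ± 0.34 (adjusted p = 0.000217). Its untreated arrays averaged -2.12, and omeprazole minus untreated was 0.28 ± 0.34 (adjusted p = 0.565). Rasl2-9, a Ran-like GTPase gene, was also well above background on all 8 arrays and differed by 1.85 ± 0.31 (adjusted p = 0.00227).

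The other 8 had sham signals near background. Adam7, a gene of the metalloprotease-disintegrin family, was well above background on 4 omeprazole arrays and 1 sham array and differed by 2.91 ± 0.55 (adjusted p = 0.00584). It was not called with normexp, at 0.78, or with the 2 groups fitted alone, at 2.91 (adjusted p = 0.0833 and 0.0623). Tsg101, a gene of endosomal sorting, was so on 3 omeprazole arrays and 1 sham array and differed by 1.88 ± 0.30 as measured (adjusted p = 0.00131). With signals near background raised to the dimmest one that passed, Tsg101 differed by 0.14, and with normexp by 0.043, and it was not called (adjusted p = 0.82 and 0.912). In 5 genes the sham arrays were not well above background at all, and the fold is then a lower bound against the dimmest signal that passed, with the group means beside it. Ppp1r14bl was at least 1.95-fold higher (means -4.56 in omeprazole and -7.19 in sham, adjusted p = 0.00452). Tspan5, a tetraspanin gene, was at least 1.53-fold higher (means -4.92 in omeprazole and -6.79 in sham, adjusted p = 0.00238). Tcf21, a transcription factor gene of fibroblasts, was at least 1.48-fold higher (means -4.96 in omeprazole and -7.19 in sham, adjusted p = 0.000782). Or4g16, an olfactory receptor gene, was at least 1.39-fold higher (means -5.05 in omeprazole and -7.05 in sham, adjusted p = 0.000198). Lap3, an aminopeptidase gene, was at least 1.17-fold higher (means -5.30 in omeprazole and -7.42 in sham, adjusted p = 1.38e-05). None of these 5 was called with signals near background raised (0.22 to 0.96, adjusted p = 0.207 to 0.702) or with normexp (0.072 to 0.30, adjusted p = 0.437 to 0.83). Amn1 passed on 2 omeprazole arrays and 0 sham arrays, and its bound is under 1, so no fold is given.

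The 2 called falls were Ccdc175 and Bag5. Bag5, a gene for a co-chaperone of Hsp70, had 0.99, 1.00, 0.97 and 1.27 on the omeprazole arrays, against 2.04, 1.34, 1.83 and 1.92 on the sham arrays. The groups did not overlap and the difference was -0.73 ± 0.15 (adjusted p = 0.0132). Ccdc175, a gene for a coiled-coil protein, was not well above background on any omeprazole array and was so on all 4 sham arrays. It was at least 1.76-fold lower (means -6.54 in omeprazole and -4.91 in sham, adjusted p = 0.0218). The call of Ccdc175 was lost under 7 of 21 alternatives, at -1.62 to -0.55 as measured, and that of Bag5 under 3 of 23, at -0.73 to -0.68.

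Base composition of the probes moved with these calls. Genes outside the set that rose had probes with a median of 40% G and C, and those of the set had 40%, against 45% over all genes. Of 154 genes whose probe held under 30% G and C, 29.9% rose in omeprazole minus sham. In the 5 groups of probes from 35% upward the share lay between 0.671% and 1.42%. The set took 27.3% of the genes under 30% G and C. In untreated minus sham, the second slide against the first, 30.5% of the genes under 30% were lower, and 13.3% of those with 55% or more. In omeprazole minus untreated, the third slide against the second, 61.7% of the genes under 30% were higher, and 10.5% of those with 55% or more. Against the STW5 arrays of the same slide 0 of the 154 genes were called in either direction, where 0.22% of all genes were. At that share 154 genes would hold few or no calls, so the 0 is no result about them. With probes of at least 40% G and C alone, 37 genes outside the set rose and 1 fell. The part of probe composition in the calls was not tested.

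**Figure D3:**
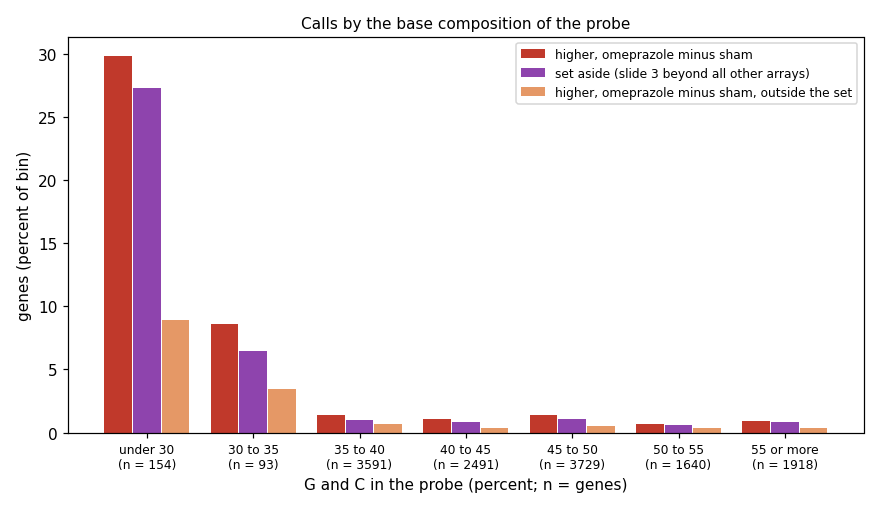
Percent of the genes in each class of probe G and C content that rose in omeprazole minus sham, that belonged to the slide set, and that rose outside the set. In the class under 30% these shares are 29.9%, 27.3% and 8.93%, and from 35% upward no bar is above 1.42%.

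The set of 173 genes was chosen by these arrays and is described here with no test. Among its genes with an established symbol the 6 largest rises were Lactb, Txnip, Tob1, Bicdl1, Cox7c and Pecr. Txnip, which encodes a thioredoxin-binding regulator of glucose uptake, had -0.86, -1.51, -1.59 and -1.10 on the omeprazole arrays, against -5.35, -4.58, -4.37 and -4.18 on the sham arrays. Lactb, a gene for a mitochondrial serine protease-like protein, averaged -3.41 on the omeprazole arrays and -7.35 on the sham arrays, none of which was well above background. Cox7c, a subunit gene of cytochrome c oxidase, averaged -2.64 on the omeprazole arrays and -5.69 on the sham arrays. The STW5 arrays of the slide averaged -3.42 for Lactb, -0.87 for Txnip and -2.63 for Cox7c, close to omeprazole. All 6 probes held 18.3% to 26.7% G and C. Genes with placeholder or pseudogene symbols are left out of this ranking. Among them Hspd1-ps3 differed by 3.91 and LOC689442 by 3.62, with probes of 35% and 43.3% G and C. The 6 largest falls with an established symbol were Grxcr2, Alkbh1, Swi5, Timm17b, Psmb5 and Psma5. They lay between -0.78 and -0.36 as measured, and the last pair encode proteasome subunits.

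Some genes of the set had further probes. For 20 genes of the set that were higher on the third slide, 23 further probes had passed the filter. The probes in the set were chosen for their high values on these arrays and the further ones were not, so a smaller difference in the further ones is what that choice favours, and the values are a description only. The median difference was 1.08 for the probes in the set and 0.16 for the further ones, and their median G and C content was 35% and 45%. Among the 20 with an established symbol, Bicdl1, a gene for an adaptor of dynein transport, and Qsox2, a sulfhydryl oxidase gene, had the largest differences. The first 30 bases of each 60-base probe are shown so that probes of 1 gene can be set side by side, with G and C in capitals, 5′ to 3′ as on the array.
Bicdl1 set probe: aataCaCGtatGGattttataataCaCaCa
Bicdl1 further probe: aaGCCtaCtGCCaGGttCGCtatCtGtGCt
Qsox2 set probe: GaGaGGtattaCGattaatGtCtaGaataG
Qsox2 further probe: atGatCatGtaCttCttCttCaGaGtaaGG
The Bicdl1 probes lie on the plus strand of rn4 at chr12:42227532-42227591 for the set probe and chr12:42212818-42212877 for the further one, per the array file, and the Qsox2 probes on the minus strand at chr3:4390056-4390115 and chr3:4392137-4392196. The set probe of Bicdl1, with 21.7% G and C, differed by 3.07, and the further one, with 55%, by 0.54. The set probe of Qsox2, with 23.3% G and C, differed by 2.00, and the further one, with 45%, by 0.27. Eif3h, a subunit gene of translation initiation factor 3, had a set probe that differed by 1.89 and further probes that differed by 0.76 and 1.20.

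Inflammatory genes split the omeprazole arrays. Of 7 measured neutrophil chemokine genes 0 were called against sham, although their median difference was 1.80, and 0 had an unadjusted p under 0.05. Cxcl3, a ligand of the neutrophil receptor Cxcr2, had -4.99, 2.44, 2.48 and -1.17 on the omeprazole arrays, against -7.41, 2.65, -6.47 and -5.86 on the sham arrays. The difference of 3.96 ± 2.05 missed the threshold (adjusted p = 0.49), and so did that of 6.27 without sham replicate 2 (adjusted p = 0.0638). Il1b, which encodes interleukin 1 beta, had -3.60, 1.36, 1.36 and -1.67 on the omeprazole arrays, against -6.94, 1.08, -7.22 and -4.97 on the sham arrays. Its difference was 3.88 ± 1.62 (adjusted p = 0.389), and 5.74 without sham replicate 2 (adjusted p = 0.0288). The neutrophil alarmin gene S100a9 had -2.18, 4.51, 4.63 and 0.67 on the omeprazole arrays, against -4.07, 4.49, -4.35 and -3.25 on the sham arrays (3.70 ± 1.95, adjusted p = 0.495). In these genes omeprazole replicates 2 and 3 and sham replicate 2 were high, and omeprazole replicate 4 lay between them and replicate 1. Of 15 neutrophil granule and alarmin genes 0 were called, with a median of 1.10, and Cd177, a neutrophil surface gene, was called without sham replicate 2 (3.95, adjusted p = 0.044).

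As the mean of its centred genes, the neutrophil chemokine list scored -2.93, 1.52, 1.38 and -0.89 on the omeprazole arrays, against -3.36, 1.51, -3.31 and -2.07 on the sham arrays. Untreated arrays scored 1.90 to 3.33, above every omeprazole array. In omeprazole minus untreated 3 of the 7 chemokine genes and 7 of the 15 granule genes were lower, where 12.2% of all genes were lower. In untreated minus sham 5 of 7 and 12 of 15 were higher, where 15.0% of all genes were. Whether neutrophils were fewer or held less of these RNAs cannot be told apart in tissue RNA, which holds for every cell type below.

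Macrophage and myeloid genes were lower than in untreated rats. Of 27 measured members 0 were called against sham, where 1.58% of all genes were. All 27 differences were above 0, with a median of 0.48 (0.77 without sham replicate 2). The untreated minus sham median was 3.25, with 27 of 27 higher, where 15.0% of all genes were. In omeprazole minus untreated 25 of 27 were lower, where 12.2% of all genes were. Cd68, a macrophage lysosome gene, had -0.30, 1.10, 0.91 and 0.16 on the omeprazole arrays, against -0.03, 0.89, -0.01 and 0.18 on the sham arrays, so the groups overlapped (0.21 ± 0.47, adjusted p = 0.889). The untreated mean of Cd68 was 3.12. Cd163, a haemoglobin scavenger receptor gene, differed by 0.76 ± 0.61 from sham and by -2.19 ± 0.61 from untreated rats (adjusted p = 0.654 and 0.0142). Spp1, which encodes osteopontin, was the member that depended on sham replicate 2. It had -3.36, 1.15, 1.27 and -1.45 on the omeprazole arrays, against -7.21, 1.05, -7.03 and -4.96 on the sham arrays, with a difference of 3.94 ± 1.47 (adjusted p = 0.309) and of 5.80 without it (adjusted p = 0.00604).

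Lymphocyte and antigen presentation genes gave 0 calls against sham. Among 17 T and NK cell genes 3 had an unadjusted p under 0.05 on the higher side and 1 on the lower, where 6.48% and 4.41% of all genes had one. The median was 0.66, beside 2.04 in untreated minus sham. Cd4 differed by 1.31 ± 0.54 and Cd3g, a subunit gene of the T cell receptor complex, by 1.75 ± 0.79 (adjusted p = 0.376 and 0.43). Foxp3, the transcription factor gene of regulatory T cells, ran the other way with -0.65 ± 0.23 (adjusted p = 0.254). Of 17 MHC class II and antigen processing genes the median was 0.38, with RT1-Bb, a class II chain gene, at 0.89 ± 0.40 (adjusted p = 0.42). B and plasma cell genes had 5 measured members and a median of -0.22. Mast cell and eosinophil genes had a median of -0.19 over 14 members, and their highest score was 1.51 on sham replicate 4, where the omeprazole arrays scored -0.45 to -0.01.

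Other inflammatory lists had medians above 0 and no calls. These were 23 chemokines of monocytes, eosinophils and lymphocytes (0.30), 18 genes of the TNF and IL-6 families with STAT3 feedback (0.32), 22 complement and acute phase genes (0.57), 29 matrix proteases and inhibitors (0.50), 40 fibrillar matrix genes (0.29) and 24 endothelial genes (0.39). Against the untreated group 11, 12, 10, 16, 15 and 9 of them were lower, in the same order of lists, and 0 were higher in any, where 12.2% of all genes were lower and 15.6% higher. Ccl22, a chemokine gene that attracts T cells, had -1.79, -2.95, -3.06 and -3.83 on the omeprazole arrays, against -4.99, -3.19, -5.59 and -5.51 on the sham arrays (1.91 ± 0.54, adjusted p = 0.118, and 2.45 with adjusted p = 0.00917 without sham replicate 2). Ctsk, which encodes the collagen-cleaving cathepsin K, differed by 1.79 ± 0.57 (adjusted p = 0.2), and Tnc, which encodes the wound matrix protein tenascin C, by 1.41 ± 0.61 (adjusted p = 0.404). Both were called without sham replicate 2, at 2.35 and 2.14 (adjusted p = 0.0228 and 0.0228). Tnf, which encodes tumour necrosis factor, differed by 0.68 ± 0.70 (adjusted p = 0.735), and the cytokine gene Il6 was not well above background on any of the 8 arrays. Of 14 interleukin 1 family genes 0 were called, with a median of 0.01.

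**Figure D4:**
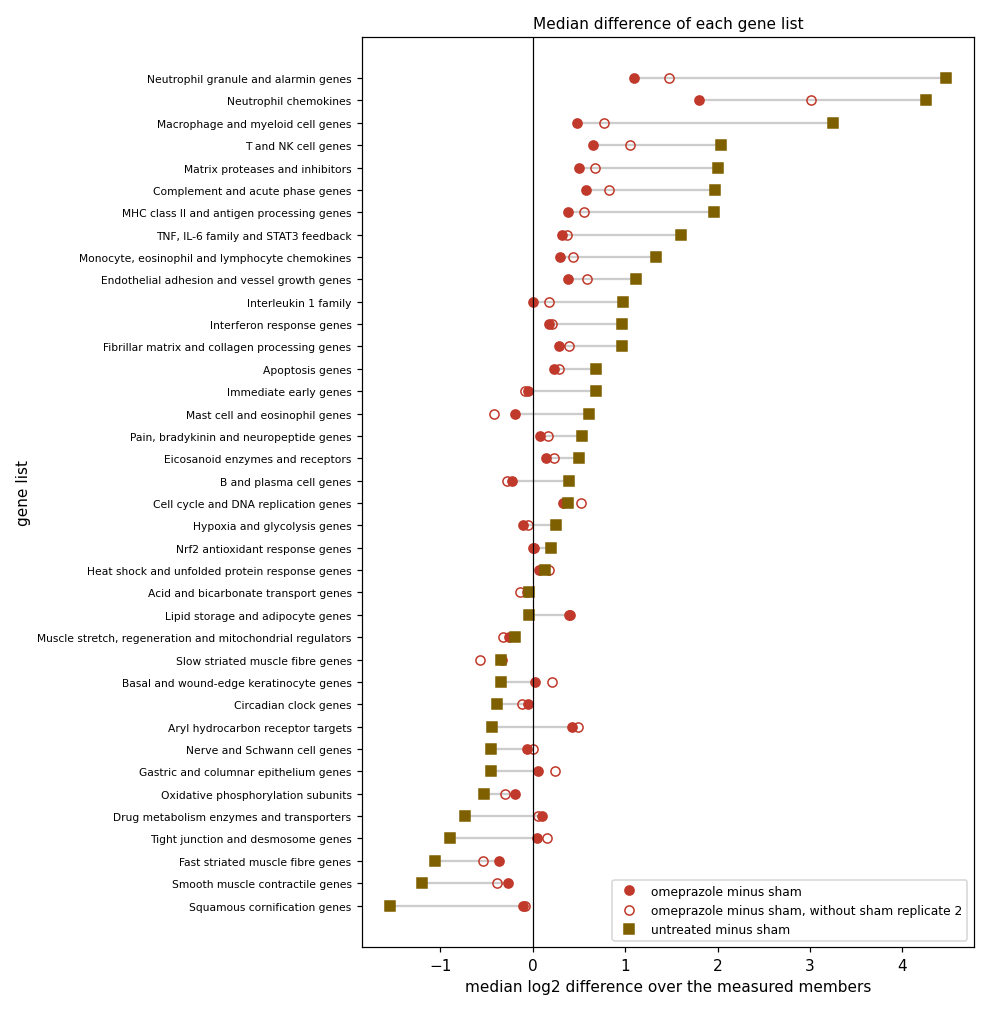
Median log2 difference over the measured members of each of 38 gene lists in omeprazole minus sham, with and without sham replicate 2, and in untreated minus sham, which shares the sham arrays. The macrophage list stands at 0.48 (0.77 without that array) and 3.25, and the squamous cornification list at -0.11 and -1.54.

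Squamous differentiation genes were higher than in untreated rats. Of 34 measured cornification genes 0 were called against sham, with a median of -0.11, and in omeprazole minus untreated 23 were higher and 0 lower, where 15.6% of all genes were higher. In untreated minus sham 28 of the 34 were lower (18.0% of all genes). Krt1, a keratin gene of upper layers, had -0.11, -0.32, -0.57 and -0.03 on the omeprazole arrays, against 2.27, -0.25, 0.35 and 1.37 on the sham arrays. The difference was -1.19 ± 0.57 (adjusted p = 0.464), and omeprazole minus untreated was 1.87 ± 0.57 (adjusted p = 0.0225). Casp14, a protease gene of cornifying cells, differed by -0.32 ± 0.47 from sham and by 2.01 ± 0.47 from untreated rats (adjusted p = 0.819 and 0.00514). Krt76, another differentiation keratin gene, stood at -1.08 ± 0.49 against sham (adjusted p = 0.441). Sham replicate 2 was low in it, at -4.83, where the other sham arrays had -2.86 to -2.80 and the omeprazole arrays -4.78 to -4.11.

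Junction genes had 0 of 27 calls against sham, where 1.58% of all genes were called, and a median of 0.04. In omeprazole minus untreated 15 of 27 were higher, where 15.6% of all genes were. Ocln, which encodes the tight junction protein occludin, differed by 0.30 ± 0.25 from sham and by 1.20 ± 0.25 from untreated rats (adjusted p = 0.668 and 0.00294). Tjp3, a scaffold gene of tight junctions, differed by -0.40 ± 0.26 and 0.97 ± 0.26 in these comparisons (adjusted p = 0.578 and 0.011). Basal and wound-edge keratinocyte genes followed the split of the arrays. Their list scored -0.52, 0.88, 0.88 and -0.02 on the omeprazole arrays, against -0.51, 0.97, -0.21 and -0.55 on the sham arrays. Krt14, a basal keratin gene, had 5.04, 7.50, 7.44 and 5.94 on the omeprazole arrays, against 5.14, 7.49, 5.62 and 5.03 on the sham arrays (0.66 ± 0.59, adjusted p = 0.69). Krt16, a keratin gene of wounded epithelium, had -7.08, 1.64, 2.71 and -2.46 on the omeprazole arrays, against -7.29, 1.89, -7.67 and -7.79 on the sham arrays (3.92 ± 2.54, adjusted p = 0.584).

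**Figure D5:**
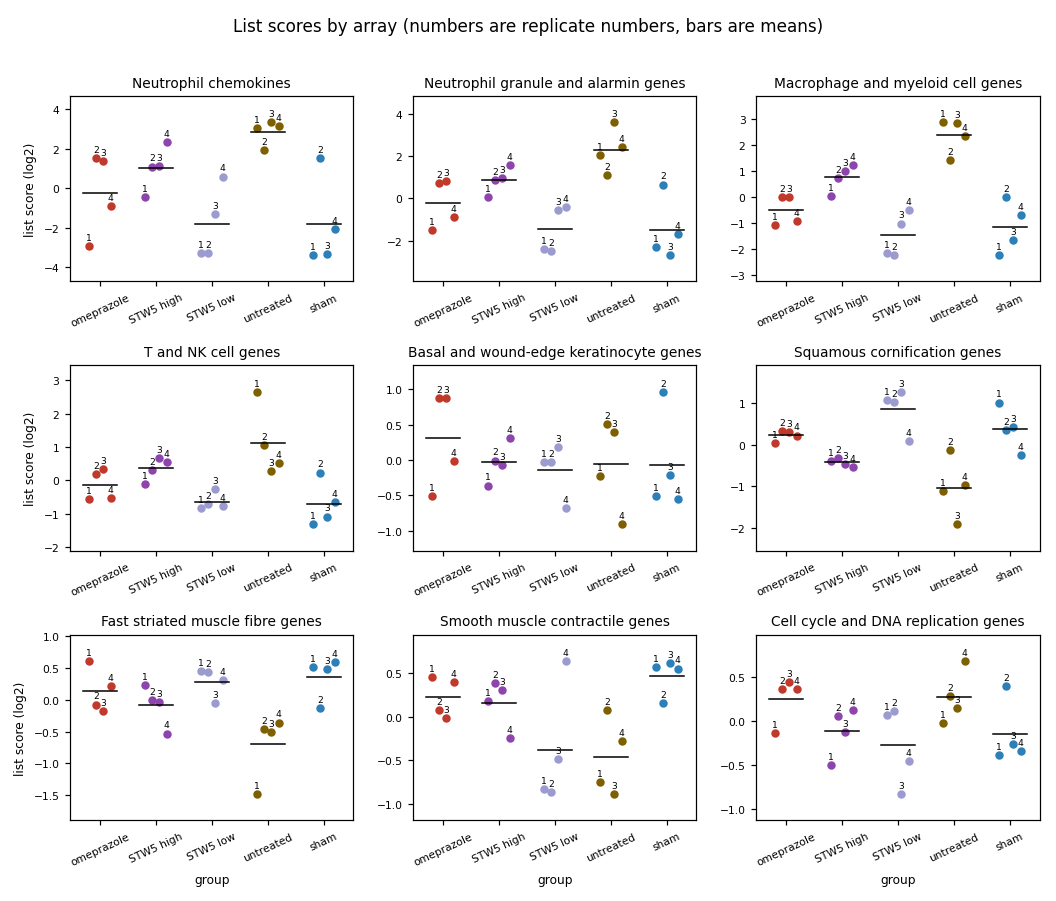
Score of 9 gene lists (mean of the centred log2 levels of the members) on each of the 20 arrays, by group, with the replicate number at each point and the mean as a bar. Omeprazole replicates 2 and 3 and sham replicate 2 lie together in the neutrophil, macrophage and basal keratinocyte panels, and the 4 untreated arrays score above every omeprazole and sham array in the neutrophil chemokine and macrophage panels.

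Muscle lists had medians below 0 and 0 calls. Of 22 fast fibre genes the median was -0.36, of 13 slow fibre genes -0.33, of 15 smooth muscle genes -0.27 and of 40 oxidative phosphorylation subunits -0.20, beside 0.01 over all genes. With an unadjusted p under 0.05, 1 fast fibre gene was higher and 1 oxidative phosphorylation gene was lower, where 6.48% and 4.41% of all genes were. Ckm, which encodes muscle creatine kinase, had 7.95, 7.45, 7.25 and 7.74 on the omeprazole arrays, against 8.35, 7.58, 8.23 and 8.21 on the sham arrays (-0.49 ± 0.30, adjusted p = 0.557). Myh4, a fast myosin heavy chain gene, ran the other way, with -0.34, -1.78, -2.08 and -1.53 on the omeprazole arrays, against -2.38, -2.68, -2.45 and -2.50 on the sham arrays. Its groups did not overlap, but the difference of 1.07 ± 0.35 missed the threshold (adjusted p = 0.222). Against untreated rats Myh4 was higher by 2.38 ± 0.35 (adjusted p = 0.000238).

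The stretch-response genes Ankrd1 and Ankrd2, which encode ankyrin repeat proteins of the sarcomere, were lower than in untreated rats. Ankrd2 had -0.12, -1.70, -1.28 and -3.93 on the omeprazole arrays, against -5.24, -1.64, -5.13 and -4.36 on the sham arrays (2.34 ± 1.06, adjusted p = 0.435). Ankrd1 differed by 2.36 ± 1.00 (adjusted p = 0.398, and 3.32 with adjusted p = 0.0713 without sham replicate 2). In omeprazole minus untreated Ankrd2 and Ankrd1 stood at -4.39 ± 1.06 and -4.06 ± 1.00 (adjusted p = 0.00659 and 0.00734). Of the 28 stretch, regeneration and mitochondrial regulator genes that hold them 0 were called against sham, with a median of -0.25.

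Cell cycle genes had mostly positive differences and 0 calls. Of 31 measured members 28 differences were above 0, the median was 0.33 (0.52 without sham replicate 2), and 5 had an unadjusted p under 0.05 on the higher side, where 6.48% of all genes did. Over all genes the median was 0.01 (0.02 without sham replicate 2). Without sham replicate 2, 3 of the list were called higher, where 2.09% of all genes were. Mcm6, a subunit gene of the replicative helicase, had -4.01, -3.81, -2.90 and -4.21 on the omeprazole arrays, against -5.52, -4.12, -6.33 and -6.42 on the sham arrays (1.86 ± 0.54, adjusted p = 0.127, and 2.35 with adjusted p = 0.0178 without sham replicate 2). Tyms, which encodes thymidylate synthase, differed by 0.75 ± 0.24 (adjusted p = 0.19).

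Clock genes gave 0 calls, and 1 of 16 was higher and 4 were lower with an unadjusted p under 0.05, where 4.41% of all genes were lower. Nr1d2, a nuclear receptor gene that represses clock activators, had -3.87, -3.85, -4.10 and -4.24 on the omeprazole arrays, against -2.14, -3.68, -2.75 and -3.29 on the sham arrays (-1.05 ± 0.30, adjusted p = 0.127). Per2, a clock repressor gene, had -3.68, -3.79, -4.03 and -3.80 on the omeprazole arrays, against -5.01, -3.93, -4.86 and -4.89 on the sham arrays (0.85 ± 0.25, adjusted p = 0.147). The groups did not overlap in Nr1d2, while in Per2 sham replicate 2 lay inside the omeprazole range. Both Nr1d2 and Per2 were called without sham replicate 2 (-1.29 and 1.10, adjusted p = 0.03 and 0.0151). The output gene Dbp stood at -1.03 ± 0.39 (adjusted p = 0.319). The hour at which the tissue was taken is not given in the sources used here.

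Stress and metabolism lists had medians between -0.10 and 0.23, beside 0.01 over all genes. Over 26 Nrf2 targets it was 0.01, over 22 heat shock and unfolded protein genes 0.07, over 30 hypoxia and glycolysis genes -0.10, over 26 eicosanoid genes 0.14, over 21 apoptosis genes 0.23 and over 22 immediate early genes -0.05, with 0 calls in each. Jun, a subunit gene of the AP-1 transcription factor, had 2.11, 1.81, 1.37 and 1.89 on the omeprazole arrays, against 3.17, 1.95, 2.50 and 2.72 on the sham arrays (-0.79 ± 0.24, adjusted p = 0.153). Egr2, an early response transcription factor gene, stood at 0.89 ± 0.25 (adjusted p = 0.118). Hk1, a hexokinase gene, differed by 0.54 ± 0.16 from sham and by 1.19 ± 0.16 from untreated rats (adjusted p = 0.146 and 0.000103). Lipid storage genes had a median of 0.41 over 17 members, with no call and with scores from -0.05 to 1.40 on the omeprazole arrays and from -0.77 to 1.84 on the sham arrays.

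The 50 largest called rises and 50 largest called falls of untreated minus sham were taken among genes with an established symbol. Of these, the 4 and 4 genes with the smallest measured difference between omeprazole and sham were picked. Among the rises, Ccl4, a macrophage chemokine gene, and Acod1, which encodes the itaconate-producing enzyme of activated macrophages, were not well above background on any omeprazole or sham array. Their order against sham is therefore not measured. Ccl4 was at least 13.0-fold lower than in untreated rats (means -7.15 in omeprazole and -2.04 in untreated, adjusted p = 4.61e-06). Acod1 was at least 10.4-fold lower (means -7.23 in omeprazole and -2.37 in untreated, adjusted p = 0.000341). Wfdc15b was well above background on 1 omeprazole array and 0 sham arrays. Olr1, a scavenger receptor gene for oxidized lipoprotein, was so on 2 omeprazole and 2 sham arrays and differed from sham by 0.06 (95% interval -1.65 to 1.77). The picked falls were Col22a1, a collagen gene of the muscle-tendon junction, at 0.03 (-1.32 to 1.39), Pkhd1l1 at -0.06 (-1.15 to 1.02), Cesl1 at 0.11 (-0.74 to 0.95) and Abhd12b at 0.11 (-1.22 to 1.44). The intervals leave room for differences of more than 1 in 4 of these 5 genes on at least 1 side.

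In omeprazole minus untreated, where slide and group again cannot be told apart, 3781 genes were called (27.8%). Outside the set 1964 were higher (14.6%) and 1649 lower (12.3%). Of all genes whose probe held under 30% G and C, 61.7% were higher in this comparison. Of the genes called against sham, those outside the set with an established symbol were ranked by their difference from untreated rats. The largest rises over untreated were Cyp1a1, Reep5, Adam7, Tsg101, Lap3 and Ppp1r14bl. Reep5, a gene that shapes the endoplasmic reticulum, had -3.56, -3.92, -3.73 and -3.53 on the omeprazole arrays, against -5.58, -5.34, -4.74 and -5.26 on the sham arrays. It was higher than sham by 1.55 ± 0.29 (adjusted p = 0.00504). It was not well above background on any untreated array and was at least 4.54-fold higher than there (means -3.68 in omeprazole and -6.42 in untreated, adjusted p = 7.1e-06). The lowest of these genes against untreated were Ccdc175, Ripor2, Ifitm7, Bag5, Ap2a2 and Swap70, at -0.72 to 0.08 as measured, and none passed the threshold there (adjusted p = 0.068 to 0.737). Ifitm7, of the interferon-induced transmembrane family, Ap2a2, a subunit gene of the clathrin adaptor AP-2, and Swap70, a gene of B cell and actin signalling, rose against sham by 1.27 ± 0.29, 1.07 ± 0.19 and 0.97 ± 0.16 (adjusted p = 0.0304, 0.00351 and 0.00233). In untreated minus sham they stood at 1.68, 1.22 and 0.89. Ripor2 rose by 1.10 ± 0.26 (adjusted p = 0.0362), and its further probe differed by -0.02. The calls of Ifitm7 and Ripor2 against sham were lost under 11 and 14 of 23 alternatives, at 0.99 to 1.35 and 0.54 to 1.22.

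The STW5 arrays of the third slide are titled 2 ml/kg, but the deposited value table assigns these scans to the other dose, so the dose is not settled. Between omeprazole and those arrays 4 genes were higher (0.0294%) and 26 lower (0.191%) in omeprazole, 0.22% together. The lower genes described here were chosen after their values were seen. Ccl11, which encodes eotaxin, had -3.74, -1.47, -1.63 and -2.39 on the omeprazole arrays, against -4.76, -1.60, -3.01 and -2.21 on the sham arrays and a mean of 2.49 on the STW5 arrays (omeprazole minus STW5 -4.79 ± 0.75, adjusted p = 0.0145). Ccr3, the receptor gene for eotaxin, was not well above background on any omeprazole or sham array and was at least 3.96-fold lower than on the STW5 arrays (means -7.31 in omeprazole and -3.76 in STW5, adjusted p = 0.00407). Retnlg, a resistin-like gene of neutrophils, Tnnt1 and Tnnc1, both slow troponin genes, and Bdkrb1, the inducible bradykinin receptor gene, differed by -6.10 ± 1.02, -3.13 ± 0.52, -2.91 ± 0.51 and -2.24 ± 0.27 (adjusted p = 0.0192, 0.0192, 0.0214 and 0.00152). The differences of Retnlg, Tnnt1 and Tnnc1 from sham were 0.57, -0.61 and -0.80, and none was called. Bdkrb1 was well above background on 1 omeprazole array and 0 sham arrays. Of the genes called against sham 0 were called against STW5. Among those outside the set with an established symbol, Cyp1a1, Calr4, Fbxo5, Ppp1r14bl, Rasl2-9 and Hist1h2bb were the highest, at 0.65 to 1.72 as measured. Tcf21, Ccdc175, Snapc1, Lap3, Glul and Tspan5 were the lowest, at -1.34 to -0.64.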

How the data were processed

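Oesophageal RNA of rats was measured on 20 Agilent arrays with 1 colour. Per the file headers, the authors' scanner files hold intensity values that Agilent Feature Extraction 10.7.3.1 background-subtracted and detrended. The authors' deposited value table is a ratio of signal to the array median, by its values, and served as an alternative only.

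The 58717 features that are no controls were averaged to 30367 probes without outlier spots, log2 transformed and scaled by subtracting each array's 75th percentile. Probes entered the fit when 4 or more arrays had them well above background in at least 50% of spots. The kept probe with the highest mean stood for its gene, named through accession, symbol or synonym (RefSeq table, GRCr8), else by the file. STW5 replicates 1 and 2 at 0.5 ml/kg were near-identical and averaged, which left 19 samples. limma 3.58.1 (R 4.3.3) fitted 5 groups with 14 residual and 2.78 prior degrees of freedom over 13616 genes, and the median SE of omeprazole minus sham was 0.245. The number of arrays limits the precision. Each array stands for 1 animal, per the series' design text.

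Genes named are the 10 and 10 largest called changes outside the slide set, up to 4 members of each described list by smallest p with others for their level, the 6 and 6 largest against untreated and STW5 among called genes, those nearest sham, and the 6 and 6 largest of the set. Rankings outside the lists used only genes with an established symbol. Members, lists and tests were chosen with earlier results of these data known. The fit was tested on simulated data. Alternatives varied background correction, scaling, filters, probes, weights, prior, block and arrays. Some genes are not reported here.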

Additional observations from a re-analysis of the deposited data

Results flagged for a closer look

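In some groups of 4 arrays 1 array stood apart from the other 3, with a gap to its nearest neighbour, as a share of the group's whole range, above Dixon's 95% limit. Chance gives this in about 1 of 20 groups, and 422 sets of gene values with an array well above background and 76 of list scores were looked at by group, of which 30 and 8 passed the limit. Values below are that share of the range. No explanation was tested.

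Sham replicate 2 stood apart on the high side for Cxcl3 (0.846), Cd177 (0.929), Krt16 (0.948) and Per2 (0.854), and on the low side for Krt76 (0.973) and Cesl1 (0.900). It was also high in the list scores of cell cycle genes (0.839) and heat shock genes (0.831) and low in those of fast muscle fibre genes (0.850) and smooth muscle genes (0.861). Krt76 was thus low in the array in which Krt16 was high.

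Other sham arrays stood apart less often. Sham replicate 1 was low for Ap2a2 (0.896) and for the eicosanoid list (0.938), and sham replicate 4 was high for Pkhd1l1 (0.920) and low for the Nrf2 list (0.831).

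Among omeprazole arrays, replicate 1 was high for Calr4 (0.852) and for slow muscle fibre genes (0.884). It was low for Tjp3 (0.959) and the cell cycle list (0.852). Omeprazole replicate 4 was high for Bag5 (0.878), toward the sham level.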

How the results depend on the processing

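Counts are of genes outside the slide set, 79 higher and 2 lower in omeprazole minus sham. They were 38 and 1 with these 2 groups fitted alone, 40 and 4 with median scaling, 39 and 11 with quantile normalization (78.0% higher, against 97.5%), 29 and 1 with normexp, 40 and 1 with probes well above background on all 8 arrays, and 37 and 1 with probes of at least 40% G and C. Array weights, 8.90 for sham replicate 3 and 0.309 to 4.74 for the other samples, gave 1668 and 1724 (49.2% higher). There were 7 lower genes without the filter on dim probes and 1 with near-background signals raised. Counting the set gave 213 higher genes, and so did the deposited value table, in which the STW5 columns are exchanged and the set is another one. Leaving out 1 array gave 44 to 151 higher genes and 1 to 47 lower, with 44 without omeprazole replicate 3, 52 without omeprazole replicate 4, 151 without sham replicate 2, 52 without sham replicate 3 and 44 without sham replicate 4. The probe limit of 40% G and C and leaving out sham replicate 2 with omeprazole replicates 2 and 3 (21 higher) were alternatives chosen after the data were seen. Median scaling moved the median of all genes to -0.18, where it was 0.01.

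In omeprazole minus untreated (1964 higher and 1649 lower) 1176 were higher with probes of at least 40% G and C and 1097 without omeprazole replicates 2 and 3. The share of higher calls was 54.4%, and 41.2% and 40% with median scaling and quantile normalization. Against STW5 (4 higher and 26 lower) the counts were 540 and 643 with 2 groups fitted, 1193 and 1068 with array weights, 244 and 84 with the value table, 15 and 53 with normexp, 11 and 53 with near-background signals raised, 1 and 15 with the probe limit and 0 and 9 with probes well above background on all 8 arrays. Counting all 20 arrays gave 7 higher, and median scaling 40 lower. Leaving out 1 array gave 0 to 1 higher and 5 to 22 lower.

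Same-numbered omeprazole and sham arrays had correlations of deviations of 0.24, 0.52, -0.31 and 0.23. Differently numbered arrays are not set beside them, so these values do not settle whether the numbers pair arrays. Same-numbered omeprazole and sham arrays also lay at the same row and column of their slides, and the part of that position was not tested. A replicate block over all 20 arrays gave 103 higher and 5 lower against sham, 2263 and 1723 against untreated, and 29 and 47 against STW5.

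Of 24 called genes named against sham, 14 lost the call with normexp, 12 with 2 groups fitted, 9 with near-background signals raised, 5 with quantile normalization, 4 with median scaling, and 2 to 6 when 1 array was left out. Without sham replicate 2 and omeprazole replicates 2 and 3, 14 lost it. Glul kept its call under all 22 alternatives run for it, and Calr4 lost it under 12 of 21. The limit on probe G and C content was not run for Glul, whose probe, with 23.3%, lies below that limit. Whether the Glul call depends on probe composition was therefore not tested. That limit left 7 of the 24 genes, and 2 of these lost the call. The values of Amn1 against sham turned to -0.043 with normexp and -0.015 with near-background signals raised. Those of Snapc1 turned to -0.036 and -0.19 against sham, and to -0.083 with normexp against untreated. The cause was not tested. Signals near background limit these genes.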
